A study of Homo sapiens with 36 samples.

Results

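The genes described here encode the machinery that copies DNA: the origin recognition complex, the licensing factors and MCM helicase, the helicase activators, the replicative polymerases, the sliding clamp and its loader, the single-strand binding protein and the enzymes that finish Okazaki fragments. They were taken by symbol from the deposited count table, and all 42 symbols listed for the group were found among its 18932 genes. RNA-seq was performed on HepG2, a human hepatoma cell line that divides in culture, in 36 samples of 12 groups with 3 replicates each. The cells were seeded and then incubated in serum-free DMEM for 6 h or 24 h. Ctrl cells (labelled DMSO/BSA) received the carrier alone, DHA cells received docosahexaenoic acid complexed to BSA, PRO cells propionate, PCA cells protocatechuic acid, and the DHA+PRO and DHA+PCA cells both compounds together. All groups therefore shared the serum-free medium, which had been preceded by culture with fetal bovine serum, and no group was sampled before the medium change. Each library was made from RNA pooled from 3 culture replicates of 1 of 3 independent experiments. A single hepatoma line stood for human hepatocytes, and its proliferation sets it apart from resting liver.

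Replication is prepared in G1, when ORC1 to ORC6 mark origins and CDC6 and CDT1 load the MCM2 to MCM7 helicase on them. At the start of S phase, CDC45, MCM10 and the GINS proteins turn the loaded helicase into a moving fork, where polymerase alpha-primase makes primers, polymerases delta and epsilon extend them, RFC loads the PCNA clamp, RPA covers single strands, and FEN1, DNA2, RNASEH2A and LIG1 join the lagging strand. Many of these genes are known targets of the E2F transcription factors and of the retinoblastoma family, and their RNA peaks near the G1/S border, whereas genes of mitosis peak later and are controlled through other promoter elements.

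Promoter sequences are shown to set the letters of these genes beside that known background. The RefSeq promoter table (GRCh38.p14, 250 bases before to 50 after each start) held 35 of the 42 genes. It was searched on both strands for 4 E2F-type motifs of 8 letters, TTTCCCGC, TTTGGCGC, TTTCGCGC and TTTGCCGC. At least 1 of them lay in the window of 17 of 35 replication genes (48.6%), against 6.57% of the 9295 tested genes with a promoter in the table and 3.99% of all 27305 genes in it. All 6 licensing and helicase genes with a window held one, as did 3 of 5 helicase activators, but only 1 of 6 origin recognition genes and 2 of 6 clamp and loader genes. The CHR letters TTTGAA, common in promoters of mitosis genes, were in 0 of the 35 windows, in 13.7% of tested genes and in 17 of 22 mitosis genes. A match is a description of the letters and not a bound site. The 160 bases upstream of the start are printed below for 4 genes that were higher at 24 h than at 6 h (MCM6, POLA2, GINS2, CDT1) and for 2 that were lower (PCNA, RFC1), with the 8-letter motifs in capitals. They are examples only. PCNA had 2 windows in the promoter table, of which the one with the motif is printed and the other held none. A gene with more than 1 window was counted as holding a motif if any of its windows held one. Among genes with a window, a motif lay in 10 of 16 higher (62.5%), 2 of 8 lower (25%) and 5 of 11 other genes (45.5%), and no difference was tested. MCM6 (chr2:135876444-135876603, minus strand) held 2 pairs of overlapping motifs on opposite strands, POLA2 (chr11:65261802-65261961, plus strand), GINS2 (chr16:85688955-85689114, minus strand), CDT1 (chr16:88803629-88803788, plus strand) and PCNA (chr20:5126623-5126782, minus strand) held 1 motif each, and RFC1 (chr4:39366363-39366522, minus strand) held none.
MCM6: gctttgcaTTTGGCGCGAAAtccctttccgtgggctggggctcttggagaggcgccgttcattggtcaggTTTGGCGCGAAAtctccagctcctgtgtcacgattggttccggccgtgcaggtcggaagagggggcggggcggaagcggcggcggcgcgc
POLA2: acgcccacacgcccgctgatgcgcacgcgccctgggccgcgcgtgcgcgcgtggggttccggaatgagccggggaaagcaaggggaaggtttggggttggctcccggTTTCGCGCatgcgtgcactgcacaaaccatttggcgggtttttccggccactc
GINS2: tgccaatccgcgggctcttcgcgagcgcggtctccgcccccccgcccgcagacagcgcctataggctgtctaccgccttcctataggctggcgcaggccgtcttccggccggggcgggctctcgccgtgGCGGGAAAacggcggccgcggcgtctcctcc
CDT1: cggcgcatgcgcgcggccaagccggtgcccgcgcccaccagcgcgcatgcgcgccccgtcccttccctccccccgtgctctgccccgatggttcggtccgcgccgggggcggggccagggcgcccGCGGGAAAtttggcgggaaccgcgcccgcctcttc
PCNA: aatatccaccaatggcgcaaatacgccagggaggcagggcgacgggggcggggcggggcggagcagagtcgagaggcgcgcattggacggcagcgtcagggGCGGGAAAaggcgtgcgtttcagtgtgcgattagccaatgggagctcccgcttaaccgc
RFC1: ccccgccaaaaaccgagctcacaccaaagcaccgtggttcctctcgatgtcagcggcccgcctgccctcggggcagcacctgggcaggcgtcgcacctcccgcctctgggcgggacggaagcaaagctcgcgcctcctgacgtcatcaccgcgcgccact

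The replication genes were expressed throughout. Per length, on the RPKM scale (counts scaled by library total and by counted gene length), their mean levels in Ctrl cells at 24 h ran from 6.22 for DNA2, the nuclease-helicase that trims long flaps, to 306 for PCNA, the clamp that tethers the polymerases. The median of all tested genes was 11.3. MCM3 (127), MCM7 (118), GINS2 (71.7) and MCM4 (67.5) followed PCNA, and the 6 subunits of the helicase thus did not have equal RNA levels, since MCM6 stood at 18.2 ± 1.39 (SD, n = 3). All 42 genes passed the filter on low counts in every fit. MCM7, RFC4, RPA3 and ORC4 overlap another gene in the annotation when whole gene spans with introns are compared. The kit does not mark strand, so reads from any exon bases shared with a partner could not be told apart. Whether exons are shared was not checked.

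Total counts per library ran from 4659744 to 42326734 with a median of 7034006.5. The highest belonged to DHA+PRO replicate 2 at 24 h and was 6.225 times the median of the other 24 h libraries, and the next was 10788964. No pair of replicates agreed within sampling noise. The hepatocyte marker ALB stood at 21830 to 31440 CPM (counts scaled to library size) in all 36 libraries, while the leukocyte markers PTPRC and CD3E were at 0 in 34 and 35 of them. The summed level of the 10 hepatocyte markers was 57040 to 65680 CPM at 6 h and 64370 to 72930 CPM at 24 h, and that of the 10 markers of other cell types was 63.2 to 108 CPM and 73.3 to 118 CPM, carried by CD68 and ACTA2. Whether a level per library changed through fewer cells in a phase of the cycle or through less RNA per cell cannot be told apart in bulk RNA.

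The 6 libraries of replicate 1 at 6 h stood apart in the replication genes, and this touches every comparison between times. The level of the group in a library was summarised as the mean over the 42 genes of the log2 CPM, each gene standardized over the 36 libraries. This mean was -1.13 to -0.72 in replicate 1 at 6 h, in every condition, against 0.09 to 0.32 in replicate 2 and 0.08 to 0.37 in replicate 3 at 6 h, and -0.41 to 0.53 in all libraries at 24 h. The replication genes took 0.326 to 0.339% of all counts in those 6 libraries and 0.403 to 0.422% in the other 12 at 6 h. For 10 of the 42 genes (CDC6, MCM2, MCM4, MCM5, MCM7, GINS1, POLA2, POLD3, POLE and FEN1) all 6 values lay below every one of the other 30 libraries, and for 0 they lay above. Among all 12046 genes tested, 0.971% lay below and 1.15% above in this way. The same 6 libraries were low for the 17 regulators of G1/S (-1.15 to -0.56, against -0.50 to 0.28 in the other 12 at 6 h). For the 26 mitosis genes they lay between the times, at 0.24 to 0.68 against 0.71 to 1.36 in the other 12 at 6 h and -1.39 to -0.08 at 24 h. The difference of log2 CPM between the most and the least GC-rich of 5 equal classes of genes, each gene against its own mean, was -0.86 to -0.15 in the 6 libraries and -0.36 to 0.24 in the other 12 at 6 h. The part of GC content or of the experiment in this was not tested. Replicates 1 and 2 (with 1 exception in replicate 2) carry library numbers of 1 series and replicate 3 of another, so that the library series did not separate replicate 1.

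**Figure D1:**
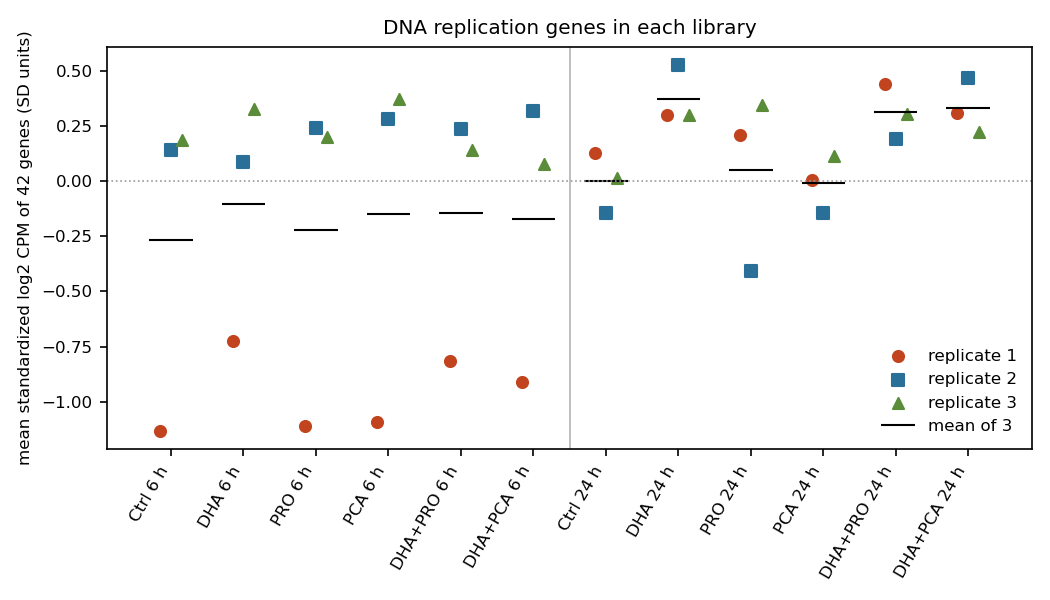
Mean standardized log2 CPM of the 42 DNA replication genes (y axis, in SD units) in each of the 36 libraries, grouped by condition and time (x axis), with a symbol for each replicate number and a bar for the mean of 3. The 6 libraries of replicate 1 at 6 h sit between -1.13 and -0.72, and all other libraries between -0.41 and 0.53.

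The first comparison set 24 h against 6 h over the mean of the 6 conditions, and it shows how the replication genes stood after a longer time in serum-free medium whatever the compound. Of 42 genes, 19 were higher and 8 lower at 24 h (edgeR quasi-likelihood test, adjusted p at most 0.05 over 12046 genes). The background was wide, since 30.1% of all tested genes were higher and 31% lower, and the total of 27 called (64.3%) was near that of all genes (61%). The median log2 fold change was 0.13 in the replication genes and -0.01 in all genes, and 29 of 42 were above 0. The higher genes were mostly those of helicase loading and activation and of polymerases delta and epsilon, and the lower ones included 3 of 6 origin recognition genes and 2 of 6 clamp and loader genes. The 18 libraries of a time point come from only 3 replicate numbers. With counts summed over the conditions of each number, 3 sums against 3, 7 genes were higher (16.7%, against 17.2% of all genes in that fit) and 3 lower (7.14%, against 16.3%), all of them among the 27.

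Within replicate numbers the size of the change differed, as the plot by gene shows. A total of 21 genes were higher at 24 h in all 3 numbers and 7 lower in all 3 (50% and 16.7%, against 35.2% and 35.4% of all genes). Without the 6 libraries of replicate 1 at 6 h, 15 genes were higher (35.7%, against 30.8% of all genes) and 12 lower (28.6%, against 31.1%), and the median was 0.03. Of the original calls, 14 of 19 higher and 8 of 8 lower were kept. ORC6, CDC45, PRIM1, POLD1 and RNASEH2A were no longer called, RPA3 became a higher call, and ORC1, POLA1, RFC3 and LIG1 became lower calls. Without replicate 1 at both times, 14 were higher (33.3%, against 30.4% of all genes) and 13 lower (31%, against 31.4%).

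**Figure D2:**
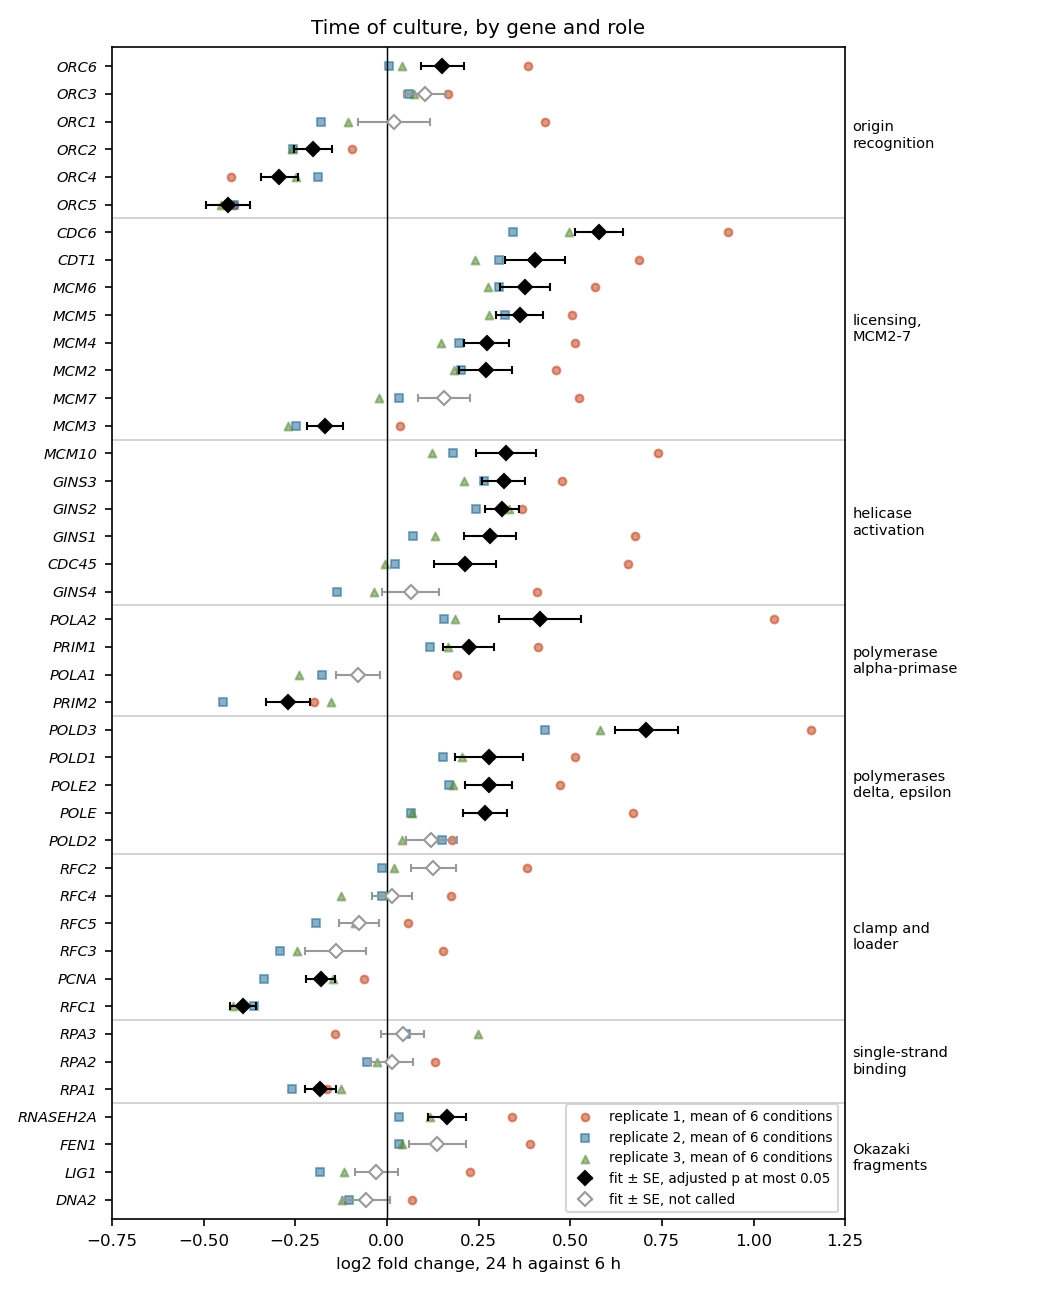
Log2 fold change of 24 h against 6 h (x axis) for the 42 genes (y axis), arranged by role. Diamonds with bars are the fit over 6 conditions with its SE, filled where the adjusted p was at most 0.05, and small symbols are the mean differences within each replicate number. The replicate 1 symbols lie furthest right for most genes, with POLD3 at 1.16, while for RFC1 and ORC5 the 3 numbers nearly coincide.

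Among the 6 origin recognition genes, ORC6, ORC3 and ORC1 had log2 fold changes of 0.15, 0.10 and 0.02, of which only that of ORC6 was called, and ORC2, ORC4 and ORC5 fell by 0.20, 0.29 and 0.43 on the log2 scale. ORC5 (chr7:103766788-103848495, hg19 as for all gene positions below), the member with the largest change of its class, is an ATP-binding subunit of the complex. Its level was 20.2, 24.6 and 29.5 CPM (lowest, median and highest of 18) at 6 h and 14.2, 17.6 and 21.9 CPM at 24 h. The 2 sets overlapped by a narrow margin, and ORC5 was lower at 24 h in 18 of 18 pairs of libraries of the same condition and number. Such pairs come from only 3 replicate numbers, so counts of them are descriptions and not 18 independent comparisons. ORC5 had a log2 fold change of -0.43 ± 0.06 (SE; adjusted p = 1.94e-07), and within replicates 1, 2 and 3 the difference was -0.42, -0.42 and -0.45, alike in the low libraries and the others.

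Of the 8 genes of licensing and the helicase, 6 were higher at 24 h: CDC6 (0.58), CDT1 (0.41), MCM6 (0.38), MCM5 (0.36), MCM4 (0.27) and MCM2 (0.27), as log2 fold changes. MCM7, at 0.16, missed the threshold (adjusted p = 0.0557), and MCM3 fell by 0.17. CDC6 (chr17:38444146-38459413), the ATPase that works with CDT1 to load the helicase, was at 62.2, 89.2 and 105.7 CPM (lowest, median and highest of 18) at 6 h and 103.8, 125.8 and 141.2 CPM at 24 h. Only a sliver of overlap remained between the times, and CDC6 was higher at 24 h in 18 of 18 pairs, with a log2 fold change of 0.58 ± 0.07 (SE; adjusted p = 3.22e-09). In Ctrl cells it stood at 72.1, 100.6 and 105.7 CPM at 6 h and 125, 122.1 and 125.6 CPM at 24 h. The difference was 0.93 in replicate 1, 0.35 in replicate 2 and 0.50 in replicate 3, and 0.43 without the 6 low libraries (adjusted p = 3.15e-10). MCM7 had 0.52 in replicate 1 but 0.03 and -0.02 in the others. MCM2, MCM5 and MCM6 were each higher in 18 of 18 pairs, which again come from only 3 replicate numbers.

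All 6 helicase activation genes had fold changes above 0, and 5 were called: MCM10 (0.33), GINS3 (0.32), GINS2 (0.31), GINS1 (0.28) and CDC45 (0.21), but not GINS4 (0.06). MCM10 (chr10:13203554-13253104), a scaffold that helps the helicase to start moving, was at 26, 40.9 and 54.5 CPM at 6 h and 44.3, 50.4 and 60.1 CPM at 24 h. The sets overlapped, with all 6 values of replicate 1 at 6 h below the range at 24 h. For MCM10 the log2 fold change was 0.33 ± 0.08 (SE; adjusted p = 0.000858), made of 0.74 in replicate 1 against 0.18 and 0.12 in replicates 2 and 3. GINS2, a subunit of the helicase that varied less between numbers, changed by 0.37, 0.24 and 0.33 and was higher in 18 of 18 pairs. CDC45 changed by 0.66, 0.02 and -0.01, and it was no longer called without the 6 libraries (adjusted p = 0.57).

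Among the genes of polymerase alpha-primase, which lays the RNA-DNA primers, POLA2 and PRIM1 were higher (0.42 and 0.22), PRIM2 fell by 0.27, and POLA1 was at -0.08. POLA2 (chr11:65029323-65066156), the accessory subunit, had the widest split between numbers in its class: in Ctrl cells it was at 15.3, 28.9 and 28.6 CPM at 6 h and at 25.3, 29.8 and 36.2 CPM at 24 h. Over 18 libraries a time it ran from 12.9 through a median of 28.4 to 35.7 CPM at 6 h and from 25.3 through 35.8 to 40.7 CPM at 24 h, and the ranges overlapped widely. Its log2 fold change of 0.42 ± 0.11 (SE; adjusted p = 0.00159) was 1.06 in replicate 1 and 0.16 and 0.19 in the others. Without the 6 libraries it was 0.16 (adjusted p = 0.0111).

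The largest rise of all was in a polymerase delta subunit. POLD3 (chr11:74303575-74354105), which joins the catalytic core to PCNA, was at 17.9, 27.2 and 36.2 CPM (lowest, median and highest of 18) at 6 h and 34.7, 43.2 and 53.9 CPM at 24 h, a narrow overlap. In Ctrl cells the values were 19.4, 31.4 and 30 CPM at 6 h and 41.5, 36.7 and 38.2 CPM at 24 h. The log2 fold change was 0.71 ± 0.09 (SE; adjusted p = 1.02e-08), with 1.16, 0.43 and 0.58 in replicates 1, 2 and 3, and 0.52 without the 6 libraries (adjusted p = 1.24e-08). The catalytic subunits POLD1 (0.28) and POLE (0.27) and the accessory POLE2 (0.28) were higher too, and POLD2 (0.12) was not called. POLE differed by 0.67, 0.07 and 0.07 in replicates 1, 2 and 3, and it was not called without replicate 1 at both times (adjusted p = 0.104). POLD1 was not called without the 6 libraries (adjusted p = 0.229).

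In the clamp and its loader, 2 of 6 genes were lower and 0 higher. RFC1 (chr4:39289069-39368001), the large subunit of the clamp loader, was at 148.8, 169.3 and 184.5 CPM at 6 h and 109.1, 127.9 and 138.8 CPM at 24 h. It was the only one of the 42 genes whose 18 values at one time did not overlap with those at the other (2.24% of all tested genes were lower at 24 h without overlap, and 3.78% higher), with a log2 fold change of -0.39 ± 0.04 (SE; adjusted p = 2.05e-11). Within replicates 1, 2 and 3 the difference was -0.40, -0.36 and -0.42. PCNA (chr20:5095599-5107268) fell by 0.18 ± 0.04 (SE; adjusted p = 0.000245), from 330.1, 369.5 and 424.8 CPM (lowest, median and highest of 18) at 6 h to 269.2, 328 and 394 CPM at 24 h. The small loader subunits RFC2, RFC3, RFC4 and RFC5 ranged from -0.14 to 0.13 and were not called, though RFC3 was lower without the 6 libraries (-0.29, adjusted p = 0.000138).

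Of the 3 subunits of RPA, the single-strand binding protein, only RPA1 (chr17:1733273-1802848) was called. RPA1 was at 94.9, 114.2 and 127.5 CPM at 6 h and 84.8, 99.8 and 114.7 CPM at 24 h, and it fell by 0.18 ± 0.04 (SE; adjusted p = 0.000349), higher in 1 of 18 pairs. RPA2 and RPA3 were at 0.01 and 0.04. Among the Okazaki fragment genes, RNASEH2A (chr19:12917428-12924462), the catalytic subunit of the enzyme that removes ribonucleotides, was at 31.8, 36.8 and 44.6 CPM at 6 h and 36.7, 42.2 and 47.6 CPM at 24 h, with wide overlap. Its log2 fold change of 0.17 ± 0.05 (SE; adjusted p = 0.00623) was 0.08 without the 6 libraries (adjusted p = 0.14) and turned to -0.01 with an offset for GC content. FEN1 (0.14), LIG1 (-0.03) and DNA2 (-0.06) were not called.

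**Figure D3:**
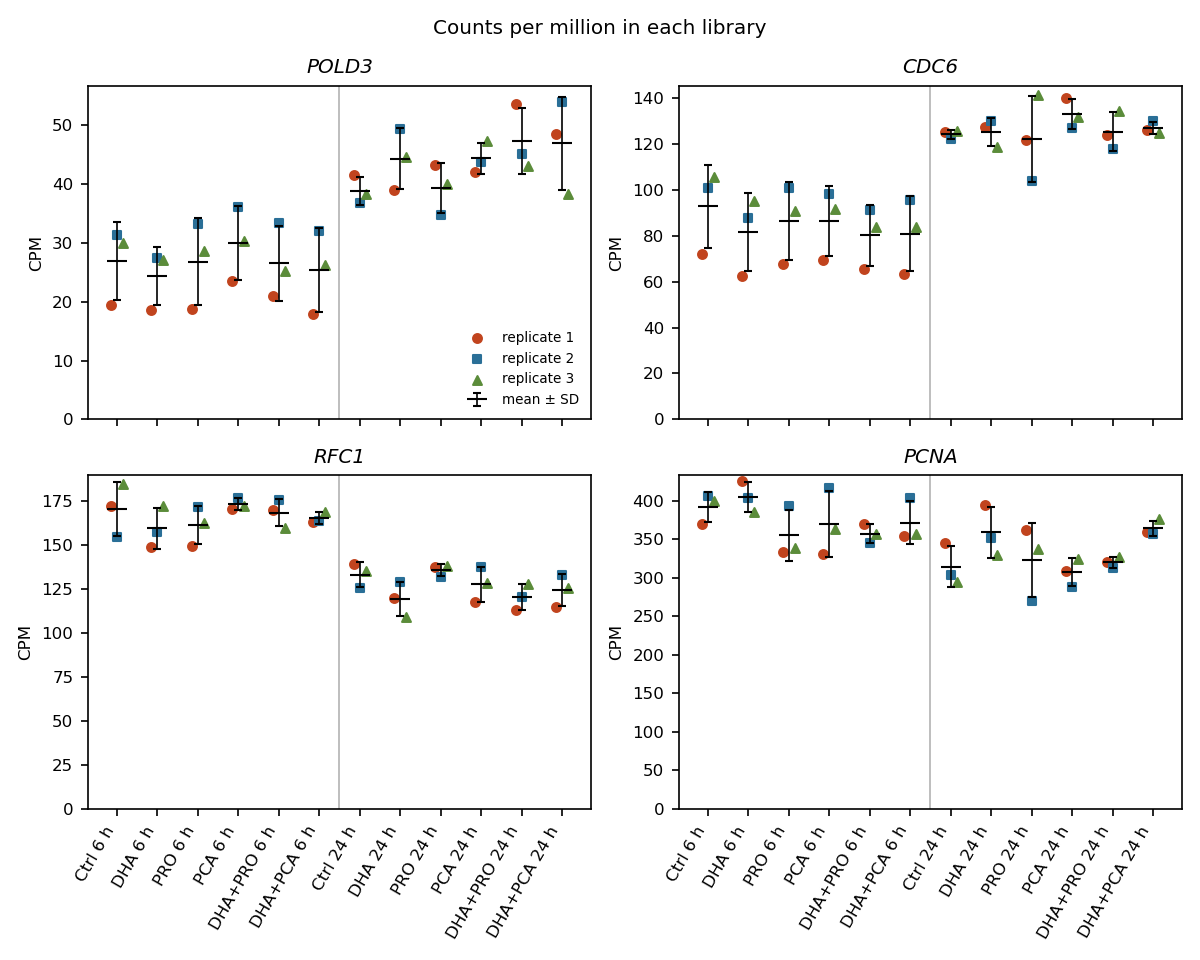
CPM of POLD3, CDC6, RFC1 and PCNA (y axes, from 0) in each library of the 12 groups (x axes), with a symbol for each replicate number and the mean ± SD of 3. POLD3 and CDC6 stand higher at 24 h and are lowest in replicate 1 at 6 h, RFC1 stands lower at 24 h without overlap, and PCNA overlaps between the times.

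In Ctrl cells alone, 24 h against 6 h, 3 genes were higher (CDC6, MCM6 and GINS3) and 3 lower (ORC5, PCNA and RFC1), against 14.1% and 11.9% of all tested genes. Leaving out Ctrl replicate 1 at 6 h gave 2 calls (18.8% of all genes), and leaving out Ctrl replicate 1, 2 or 3 at 24 h gave 3 each (22.1%, 18.6% and 18.9%). Without the 6 libraries of replicate 1 at 6 h, 0 genes were higher and 3 lower. Within DHA cells 4 were higher and 3 lower (background 19.4% in both directions together), within PRO cells 2 and 1 (14.1%), within PCA cells 5 and 4 (27.5%), within DHA+PRO cells 4 and 2 (20.3%) and within DHA+PCA cells 4 and 1 (18.7%). CDC6 was called higher in each of the 6 conditions, with log2 fold changes of 0.43 in Ctrl, 0.63 in DHA, 0.50 in PRO, 0.62 in PCA, 0.65 in DHA+PRO and 0.65 in DHA+PCA cells. POLD3 was called in 4 of the 6. Differences between effects were tested in 10 comparisons (each treatment's effect at 24 h against 6 h, the pooled DHA effect likewise, and the DHA effect with against without PRO or PCA), and the lowest adjusted p over the 42 genes was 0.838.

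GC content moved with the time comparison. Over 5 classes of rising GC content, the median change with time in all genes went from -0.14 in the lowest, through -0.10, -0.02 and 0.08, to 0.19 in the highest. The replication genes in the same classes had medians of -0.13, 0.03, 0.10, 0.17 and 0.36 (6, 16, 8, 9 and 3 genes). The median GC content was 47.5% in the 19 higher genes, 41.5% in the 8 lower ones and 46.6% in the others. With an offset per library for GC content, 15 were higher (35.7%, against 25.8% of all genes) and 8 lower (19%, against 39.5%), of which 14 and 7 were among the original calls, and the median was 0.04 against -0.06 in all genes.

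Other cell cycle lists were read in the same comparison, and no difference between lists was tested. All 26 mitosis genes were lower at 24 h (median -0.57), among them TTK, CENPE and CENPF (-0.89, -0.87 and -0.86), and all 26 stayed lower without the 6 libraries of replicate 1 at 6 h (median -0.64). Of 17 regulators of G1/S, 10 were higher and 2 lower (median 0.20), with the transcription factor E2F1 at 1.04, cyclin E1 gene CCNE1 at 0.99 and E2F2 at 0.78. Of 11 genes of nucleotide supply, 2 were higher and 4 lower, with the ribonucleotide reductase subunit RRM2 at 0.70 and the kinases DTYMK and DCK at -0.29 and -0.28. Of 22 further fork and licensing genes, 6 were higher and 6 lower, with the checkpoint mediator CLSPN at 0.38, the kinase CDC7 at 0.35 and the helicase RECQL4 at 0.30. Of 10 genes of replication-coupled chromatin, 5 were higher and 4 lower, with UHRF1, which recruits maintenance methylation, at 1.16 and the histone chaperones ASF1A and ASF1B at -0.46 and 0.45. The lowest values among the G1/S regulators and the further fork genes, named after they were seen, were those of CCNA2 (-0.44) and POLE4 (-0.27). These values are to be read against 30.1% and 31% of all genes.

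**Figure D4:**
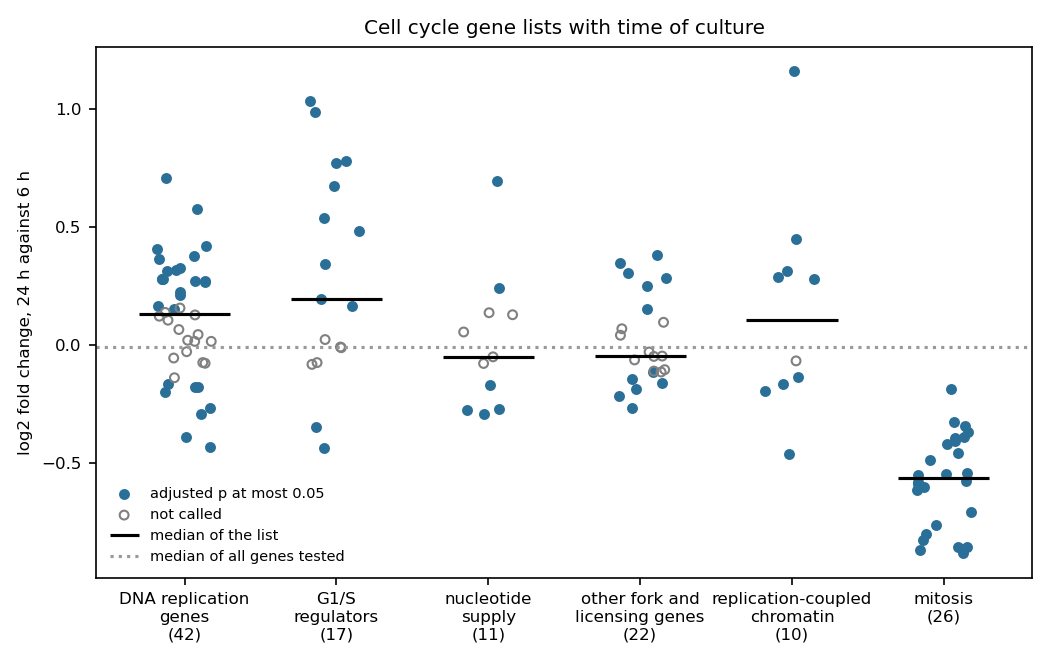
Log2 fold change of 24 h against 6 h, mean of 6 conditions (y axis), for each gene of 6 lists (x axis, number of genes in brackets), filled where the adjusted p was at most 0.05, with the list median as a bar and the median of all tested genes as a dotted line. All 26 mitosis genes lie below 0, and the replication genes spread from -0.43 to 0.71.

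The treatments were compared next, and 0 of 42 replication genes passed the test in any of them by the edgeR design used throughout or by DESeq2, while 1 alternative fit, given further on, made calls. The pooled comparison set the 9 libraries with DHA against the 9 without at the same time. At 24 h, 1.23% of all genes were called and 0 replication genes, with 6 of 42 at an unadjusted p under 0.05 (14.3%, against 9.88% of all genes). All 10 tested genes of the sterol synthesis reference list, the pathway DHA is known to repress, were lower in the same comparison. The replication genes leaned upward: 38 of 42 were above 0, against 52.5% of all genes, with a median log2 fold change of 0.08 against 0.01. The values below 0 were those of RFC1 (-0.12), ORC3 (-0.05), GINS4 (-0.03) and CDC6 (-0.01). The genes are not independent of each other, and no single one was shown to differ.

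MCM4, a helicase subunit, had the lowest p at 24 h. It was at 302.2, 348.3 and 344.9 CPM in Ctrl, 346.8, 311.4 and 359.4 in PRO and 297.7, 327.3 and 345.2 in PCA cells, and at 358.9, 401.6 and 365.1 in DHA, 338.4, 366.4 and 387.4 in DHA+PRO and 340.7, 370 and 339.8 in DHA+PCA cells. The 9 values with DHA ran from 338.4 to 401.6 CPM and those without from 297.7 to 359.4 CPM, and the sets overlapped. The log2 fold change was 0.13 ± 0.05 (SE; edgeR adjusted p = 0.311). PCNA followed, with 344.3, 304 and 294.2 CPM in Ctrl, 362.4, 269.2 and 336.7 in PRO, 308.4, 288 and 324.5 in PCA, 394, 351.9 and 329.8 in DHA, 320.4, 312.7 and 326.2 in DHA+PRO and 358.9, 357 and 375.6 in DHA+PCA cells. Its sets overlapped as well, from 312.7 to 394 CPM with DHA and from 269.2 to 362.4 CPM without, and the log2 fold change was 0.14 ± 0.06 (SE; edgeR adjusted p = 0.342). No replication gene had 9 values with DHA apart from the 9 without, and 0.374% of all tested genes did. POLD3 (0.18), RFC1 (-0.12), MCM3 (0.11) and PRIM1 (0.16) were the other 4 with an unadjusted p under 0.05.

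The mean standardized level at 24 h was 0.37 ± 0.13 in DHA, 0.31 ± 0.12 in DHA+PRO and 0.33 ± 0.13 in DHA+PCA cells (SD, n = 3), and 0.00 ± 0.14 in Ctrl, 0.05 ± 0.40 in PRO and -0.01 ± 0.13 in PCA cells. PRO replicate 2, at -0.41, was the lowest library at 24 h, and PRO replicates 1 and 3, at 0.21 and 0.35, lay inside the range with DHA (0.19 to 0.53). Within replicate numbers 1, 2 and 3, the median difference over the replication genes was 0.06, 0.12 and 0.02, and 16 of 42 were above 0 in all 3 (38.1%, against 17.5% of all genes). Genes of other lists leaned the same way: 11 of 11 of nucleotide supply, 9 of 10 of replication-coupled chromatin, 19 of 22 further fork and licensing genes and 14 of 17 G1/S regulators were above 0, and 13 of 26 mitosis genes. Of these 5 lists 0 genes were called, with 1, 2, 5, 3 and 1 at an unadjusted p under 0.05. These counts are to be read against the shares of all genes given above for the same comparison. With a GC-content offset and the replicate number as a block together, an alternative chosen after seeing the data, 4 replication genes were called higher with DHA (MCM2, MCM3, MCM4 and PCNA, adjusted p between 0.00448 and 0.0189) and RFC1 lower (adjusted p = 0.0352), out of 322 and 489 genes called in all (2.71% and 4.11%). With the same fit DHA+PCA against Ctrl at 24 h gained 1 call (3.32% of all genes). Neither correction alone gave a call. With the replicate block alone the edgeR adjusted p was 0.0876 for MCM4, 0.0886 for PCNA, 0.0897 for MCM2, 0.105 for MCM3 and 0.187 for RFC1.

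At 6 h, 0 replication genes were called with pooled DHA (0.202% of all genes) and 0 had an unadjusted p under 0.05, where 2.88% of all genes did. The log2 fold changes were above 0 in 24 of 42. RPA3, the small RPA subunit, had the lowest p: with DHA it ran from 24.6 through a median of 30.1 to 41.3 CPM and without DHA from 24.5 through 27.8 to 37.4 CPM, which overlapped, with a log2 fold change of 0.12 ± 0.09 (SE; edgeR adjusted p = 0.9995). CDC6 ran from 62.2 through 83.8 to 95.6 CPM with DHA and from 67.6 through 91.7 to 105.7 CPM without, at -0.14 ± 0.12 (SE; edgeR adjusted p = 0.9995). The low libraries of replicate 1 were in both sets, and 19 of 42 genes were above 0 without them. The change of the pooled DHA effect from 6 h to 24 h called 0 replication genes and 0% of all genes, with 0 and 368 genes at an unadjusted p under 0.05.

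**Figure D5:**
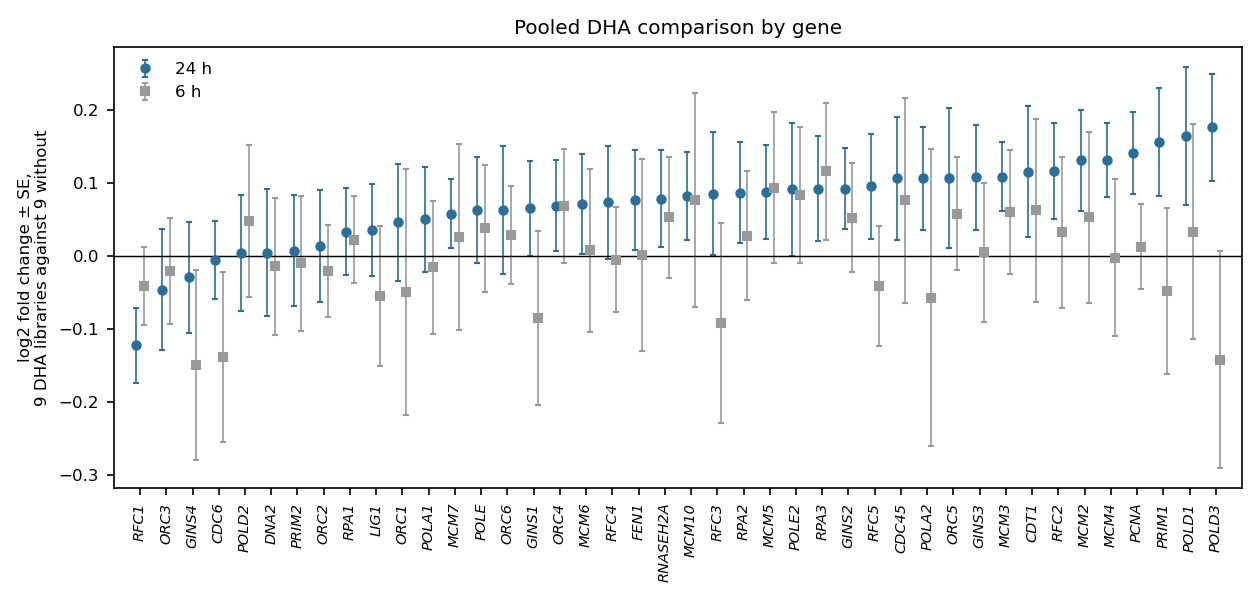
Log2 fold change with its SE of 9 libraries with DHA against 9 without (y axis) for the 42 genes (x axis, ordered by the value at 24 h), at 24 h (circles) and 6 h (squares). At 24 h 38 of 42 circles lie above 0 and at 6 h 24 of 42 squares, and none passed the test.

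Against Ctrl at 24 h, 0 replication genes were called with DHA (0.193% of all genes), PRO (0%), PCA (0%), DHA+PRO (0.395%) or DHA+PCA (0.286%). At an unadjusted p under 0.05 there were 2, 0, 0, 3 and 3 of them. The lowest p belonged to POLA2 with DHA+PRO, at 39.3, 36.9 and 40.7 CPM against 25.3, 29.8 and 36.2 in Ctrl cells. Its log2 fold change was 0.34 ± 0.12 (SE; edgeR adjusted p = 0.422). These 5 comparisons share the 3 Ctrl libraries. At 6 h, 0 were called with DHA (0.0168%), PRO (0%), PCA (0%), DHA+PRO (0.0168%) or DHA+PCA (0.0168%), and 1, 0, 0, 0 and 0 had an unadjusted p under 0.05. PRO and PCA were also pooled over their presence with and without DHA, 6 libraries against 6. At 24 h, 0 replication genes were called for PRO (0.00841% of all genes) and 0 for PCA (0%), with medians of -0.01 and 0.00, and at 6 h 0 for PRO (0%) and 0 for PCA (0%), with medians of 0.01 and 0.02. In those 4 comparisons 0, 1, 1 and 0 genes had an unadjusted p under 0.05. The counts at an unadjusted p in this paragraph stand without the share of all genes and are not read as results.

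Over the 36 libraries the genes differed in how far they followed each other. The Pearson correlation of a gene's log2 CPM with the mean of the other 41 was highest for CDC45 (0.88), MCM7 (0.86), MCM4 (0.86) and RFC2 (0.84) and lowest for ORC4 (-0.58), ORC2 (-0.36), RFC1 (-0.35) and ORC5 (-0.35). PCNA (0.05) and RPA1 (0.06) followed the rest hardly at all. Outside the group, BRCA1 (0.89), GPD1 (0.86), CLSPN (0.85), TOMM34 (0.84), CENPO (0.83) and AMT (0.83) were among the genes with the profiles most like the mean of the 42. These points share library, depth and base composition, and the 6 libraries of replicate 1 at 6 h weigh in all of them.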

How the data were processed

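RNA-seq counts of 36 HepG2 libraries were analysed. The authors aligned reads to hg19 with STAR, counted them with the iRNA-seq pipeline and deposited raw counts per RefSeq gene, not normalized. A further deposited column, the counted gene length (other unit: base pairs), served for RPKM alone. Groups and replicate numbers came from the labels. The members and gene lists were chosen with earlier results of these data known.

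Counts were tested with edgeR 4.0.16 in R 4.3.3 (filterByExpr, TMM, quasi-likelihood F test), with all 36 libraries in 1 fit between times and the 18 of a time in 1 fit between treatments. The Benjamini-Hochberg adjustment took in every gene that passed the filter (12046 in the fit of 36, 11893 at 24 h, 11872 at 6 h). A call needed an adjusted p no higher than 0.05 together with a mean log2 CPM over 0. SEs were derived as log2 fold change divided by the square root of F. CPM used TMM-scaled totals, and log2 CPM a prior count of 2. Values over the libraries were given for the 2 genes of lowest p with pooled DHA at each time and for the gene with the largest change with time in each role. Those of MCM4 and PCNA at 24 h are printed for every library, and a figure shows POLD3, CDC6, RFC1 and PCNA in every library. Otherwise the lowest, median and highest values are printed, for some genes with those of single groups. Of the 8 other genes whose profile was most like the mean of the 42, some are not reported here. POLA2 with DHA+PRO was chosen after its values were seen. Scripts were tested on simulated data. P-values of the main fits measure the spread between libraries of a group. Libraries of different conditions with the same replicate number count there as separate samples. These p-values, also those for time, therefore do not measure the spread between the independent experiments alone. The total counts of each library, of which the range and median are given above, limit the precision, and counts are reads, not molecules. Alternatives were DESeq2 1.42.0, other scalings, no filter, blocks, a thinned deep library, fits of the compared groups alone, summed counts and left-out libraries. Promoters were read from RefSeq (GRCh38.p14), a build other than that of the counts. Promoter positions are given in GRCh38.p14 and gene positions in hg19, so the 2 kinds cannot be set against each other.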

Additional observations from a re-analysis of the deposited data

How the results depend on the processing

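Of the counts of called replication genes under all alternatives, 601 stayed within 1.5 times their value and 10 did not, and of the log2 fold changes of single named genes 495 kept direction and call, 7 lost the call, 2 gained one and 2 reversed. For 24 h against 6 h over 6 conditions, summed counts, 3 samples against 3, gave 10 calls in place of 27 (33.5% of all genes in place of 61%). With the replicate number as a block beside the sums there were 20 (45.4%). For Ctrl alone, 6 calls (26% of all genes) became 13 with the replicate block (33.4%), 3 without the 6 libraries of replicate 1 at 6 h (26%), 13 with the GC-content offset and the replicate block (36.4%), and 2 to 8 when single libraries were left out. Pooled DHA at 24 h gave 5 calls and DHA+PCA against Ctrl at 24 h 1 call with the GC-content offset and the replicate block, in place of 0. RNASEH2A with time reversed from 0.17 to -0.0139 with the GC-content offset and to -0.0121 with the offset and the replicate block. The causes were not tested. The GC-content offset also moved the calls of all genes from 3623 higher and 3731 lower to 3104 and 4764. The left-out 6 and 12 libraries, the GC-content alternatives and the block on the sums were chosen after seeing the data. Same-numbered libraries had correlated residuals on average (0.145 at 24 h, 0.24 at 6 h), and libraries of different numbers had -0.071 and -0.117. The residuals were taken around group means of 3, which ties the second values to the first, so they are not an independent comparison. Only 5 and 6 of 15 pairs of groups had every correlation above 0.1. The main fits left the number out on that rule, which does not show that libraries of 1 number share no spread. Fits with the number as a block are given as alternatives. With the block alone, pooled DHA at 24 h still called 0 replication genes, but the edgeR adjusted p of MCM4 was 0.0876 in place of 0.311. With the replicate block, 31 genes were called for time over 6 conditions (23 higher, 8 lower, against 32.4% and 33.5% of all genes). Only 3 libraries per group and totals near 7034006.5 counts limit the treatment comparisons, where an effect near the SEs given could not be detected.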
